A study of Homo sapiens with 12 samples.

Results

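The metallothionein genes MT1A, MT1E, MT1F, MT1G, MT1H, MT1M, MT1X and MT2A, and the gene of their regulator MTF1, were followed through ribosome profiling of HepG2 cells, a human liver cancer line. The 9 genes were taken by name out of 58721 genes in the count files, and each was present in every file. The 8 metallothioneins lie together on chromosome 16, from MT2A (hg38 chr16:56608199-56609497) to MT1X (chr16:56682424-56684196), and MT1G is the only one of them on the minus strand. MTF1 lies on the minus strand of chromosome 1 (chr1:37809567-37859620). IGF2BP3, an RNA-binding protein, was depleted by siRNA (siIGF2BP3) and set against a control siRNA (siControl). In the footprint protocol cycloheximide, which halts ribosomes, was given at 100 µg/mL for the last 4 min, 2 days after knockdown. That protocol does not describe the Input libraries separately. Each condition was sequenced as Input RNA and as ribosome-protected fragments (RPF, 28 to 30 nt), with 3 libraries in each of the 4 groups. The knockdown is transient and comes from 1 cell line. No label says whether the numbered libraries came from separate cultures, so the p-values measure only the spread between these libraries, which may be technical.

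Metallothioneins are small cysteine-rich proteins that bind zinc and copper, and also toxic metals such as cadmium. In the liver they store and buffer zinc, and they are counted among the protections against oxidative stress. Their transcription is raised by metals through MTF1, a zinc finger protein that senses free zinc and binds metal response elements in their promoters. Glucocorticoids also induce some of them, MT2A most prominently.

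The copies are so alike that a footprint often cannot be given to 1 gene, and their sequences are therefore shown first. For each of the 8 genes a GENCODE 44 transcript was chosen by the coding length that most members share. This length was 186 bases, which is 61 codons and a stop, and each gene had a transcript with it. Where several transcripts had it, the canonical one was taken first. Identity between pairs ran from 88.7% (MT1F and MT1X) to 95.2% (MT1G and MT2A). The first 30 coding bases of each copy follow, about the length of 1 footprint, with capitals where a copy differs from the most frequent base of the 8.
MT1A: atggaccccaactgctcctgcgccActggt
MT1E: atggaccccaactgctcTtgcgccActggt
MT1F: atggaccccaactgctcctgcgccgctggt
MT1G: atggaccccaactgctcctgTgccgctggt
MT1H: atggaccccaactgctcctgcgAGgctggt
MT1M: atggaccccaactgctcctgcAccActggt
MT1X: atggaccccaactgctcctgcTcGCctgTt
MT2A: atggaTcccaactgctcctgcgccgcCggt
No copy departs from the most frequent bases at more than 4 of these 30 places, and MT1F departs at 0.

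Further into the coding sequence identical stretches become long enough to hold a whole footprint. The 29 bases that follow, from coding position 64, are identical in 7 of the 8 members, all but MT1H, and also occur in the annotated RNA of MT1JP, MT1P1, MT1P3, MT2P1 and a long non-coding RNA that overlaps MT1X.
shared stretch: aaagagtgcaaatgcacctcctgcaagaa
Over all 29-base windows of a coding sequence, the share that is also found in another metallothionein row of the annotation was 62.7% for MT1H, 62.0% for MT2A, 59.5% for MT1G, 55.7% for MT1X, 53.8% for MT1E, 40.5% for MT1A, 33.5% for MT1M and 31.0% for MT1F. The partners are unequal. MT1H shared 51.3% of its windows with MT1HL1, a copy on chromosome 1, and MT2A shared 41.1% of its windows with the pseudogene MT2P1. MT1X shared 43.0% with MT1G and 42.4% with the overlapping long non-coding RNA (ENSG00000259827). At 100 bases only MT1H still shared coding windows with another metallothionein row, 11.5% of them. The read length of the Input libraries is not given in the sources used here. An exact copy of part of the family also lies within RNF19B, on chromosome 1, where 91 positions of the genome match a 29-base coding window.

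**Figure D1:**
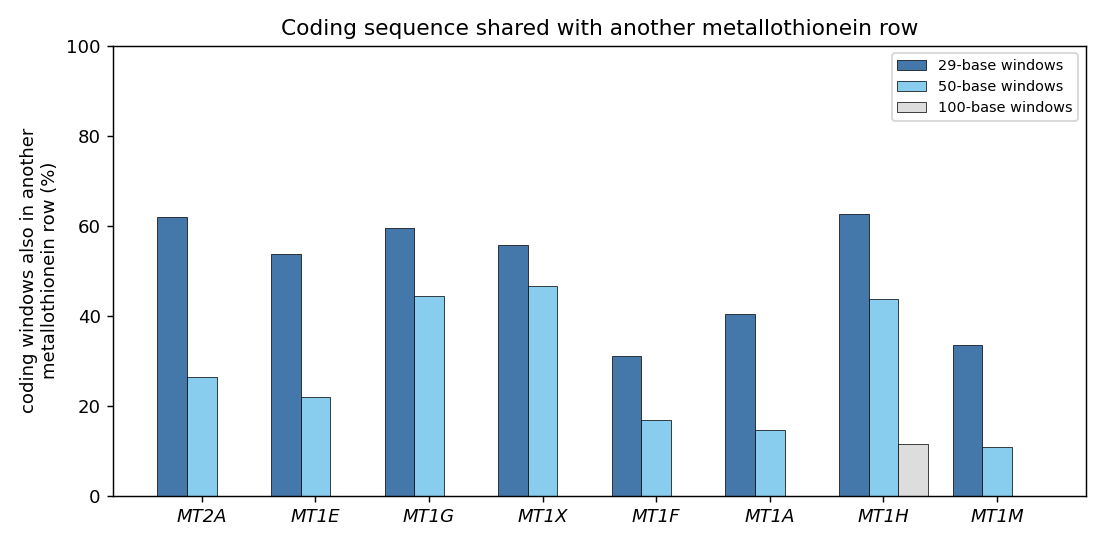
Share of coding windows (%, vertical axis) of each metallothionein that is identical to a window in another metallothionein row, for windows of 29, 50 and 100 bases. Footprint-length windows are shared by 31.0% to 62.7%, whereas at 100 bases only MT1H shares any.

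Many deposited counts were fractional. Dividing a read among all its places would produce such fractions, but the counting options are not given in the sources used here. All 8 metallothioneins had fractional RPF counts in all 6 RPF libraries. In the 6 Input libraries MT1G had whole counts throughout, MT2A had fractions in 3 and MT1X in 6. MTF1, which has no close copy, had whole counts in all 6 RPF libraries and a fraction in 1 Input library. A count at 1 of the 8 rows in the RPF libraries may thus hold reads of its relatives, and the 8 rows cannot be taken as 8 independent measurements.

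Depth ran from 11219750 to 14797573 counts in the Input libraries and from 13036423 to 31510601 in the RPF libraries. The targeted gene followed the labels: IGF2BP3 Input was 133.3, 128.6 and 126.7 CPM (counts scaled to a library total of 1000000) in siControl against 102.6, 97.9 and 105.5 CPM in siIGF2BP3, and its RPF was 74.6, 78.1 and 77.7 CPM against 21.9, 28.0 and 25.2 CPM. Its log2 fold change was -0.39 ± 0.05 (SE) in RNA and -1.59 ± 0.08 in RPF, with edgeR adjusted p of 1.06e-05 and 0.000301, and its RPF change was -1.53 ± 0.05 (1.02e-07) without the library described next. Of 7 hepatocyte markers, ALB reached 9224.8 CPM or more in each siControl Input library. Of 7 markers of other cell types, PTPRC was at 0 in all Input libraries and CD68 stood highest (19.7 to 24.8 CPM in Input). 1 RPF library stood apart. Its counts, those of siIGF2BP3 RPF replicate 1, differed from those of replicates 2 and 3 with a mean chi-square of 19.8 and 21.5 per gene, where 1 is the counting noise, against 1.15 between replicates 2 and 3. Over the 8 metallothioneins these values were 93.2, 103 and 0.606. Changes that use this library are therefore given with and without it. For the same relative difference chi-square grows with the count, so the metallothionein values and those over all genes are not on a common scale. siControl RPF replicates 2 and 3 differed by less than the counting noise over all genes (0.941) and were counted as 1 sample in means and SDs, although over the 8 metallothioneins they differed by 6.54. The noise value of 1 assumes whole reads. In the RPF libraries 63.2% to 66.0% of nonzero values were fractional, and split reads can vary less.

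MT2A, the main metallothionein of most human tissues, had the highest Input level. Input was 66.7, 62.5 and 57.6 CPM in siControl and 61.9, 64.3 and 61.9 CPM in siIGF2BP3, so the conditions overlapped. RPF of MT2A was 259.7, 238.5 and 258.8 CPM in siControl and 316.6, 189.1 and 186.8 CPM in siIGF2BP3. The siIGF2BP3 libraries lay on both sides of siControl, with replicate 1 above all and replicates 2 and 3 below all.

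MT1E, one of the inducible isoforms, had the highest RPF level of the family. Its Input was 29.3, 28.8 and 29.1 CPM in siControl and 23.1, 28.6 and 30.2 CPM in siIGF2BP3. RPF of MT1E was 350.3, 322.9 and 346.2 CPM in siControl and 328.0, 276.7 and 273.4 CPM in siIGF2BP3, where replicate 1 fell within the siControl range and the other two below it.

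For MT1G, Input was 19.7, 16.5 and 16.3 CPM in siControl and 20.4, 19.1 and 19.5 CPM in siIGF2BP3. Its RPF was 243.2, 237.7 and 249.4 CPM in siControl and 226.9, 194.5 and 192.5 CPM in siIGF2BP3, so all 3 knockdown libraries were below all 3 controls in RPF while Input overlapped.

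The clearest separation was that of MT1X. Input was 13.5, 13.5 and 15.2 CPM in siControl and 13.3, 11.6 and 14.3 CPM in siIGF2BP3, with overlap. RPF of MT1X was 125.1, 121.1 and 123.8 CPM in siControl and 89.4, 84.3 and 85.5 CPM in siIGF2BP3. Here replicate 1 of siIGF2BP3 stood with the other two, at 1.05 times their mean, whereas for MT2A it was 1.68 times their mean and for the other 6 metallothioneins 1.07 to 1.29 times.

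The remaining isoforms were scarce in Input. MT1F Input was 3.74 to 4.56 CPM over the 6 libraries, and its RPF was 87.2, 80 and 86.9 CPM in siControl and 80.3, 66.3 and 63.8 CPM in siIGF2BP3, overlapping through replicate 1. MT1A Input was 2.79 to 4.25 CPM, and its RPF was 30.2, 28.3 and 30.0 CPM against 29.9, 26.4 and 24.5 CPM, again overlapping through replicate 1. MT1M held between 0 and 7.33 Input counts a library, near the limit of detection, and its RPF was 15.4, 12.8 and 14.7 CPM against 14.0, 10.7 and 10.9 CPM, overlapping through replicate 1 as well.

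MT1H was the exception in the family: it had 0 counts in all 6 Input libraries, which allows up to 0.203 to 0.267 CPM a library (3 counts, counting error only), yet it was given footprints in every RPF library. RPF of MT1H was 20.3, 20.5 and 21.5 CPM in siControl and 17.6, 16.8 and 16.1 CPM in siIGF2BP3, without overlap. All of these RPF counts were fractional. Across the 6 RPF libraries the MT1H count stayed between 0.0777 and 0.0863 of the MT1G count and between 2.10 and 2.54 of the MT1HL1 count. The ratio to MT1G was about as steady for MT1E (1.36 to 1.45) and MT1F (0.331 to 0.358), which had Input counts. It varied more for MT1X (0.394 to 0.514) and MT2A (0.97 to 1.4). MT1HL1 likewise had 0 Input counts in all 6 libraries and 9.12 to 9.46 CPM of RPF in siControl. How much of the MT1H signal came from MT1H mRNA cannot be told apart from reads of its relatives in these counts.

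MTF1, the transcription factor that turns the family on in response to zinc, had Input of 12.5, 10.8 and 15.0 CPM in siControl and 13.0, 12.1 and 11.8 CPM in siIGF2BP3. Its RPF was 6.25, 5.76 and 6.37 CPM in siControl and 6.37, 5.16 and 5.10 CPM in siIGF2BP3. Both assays overlapped between conditions.

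**Figure D2:**
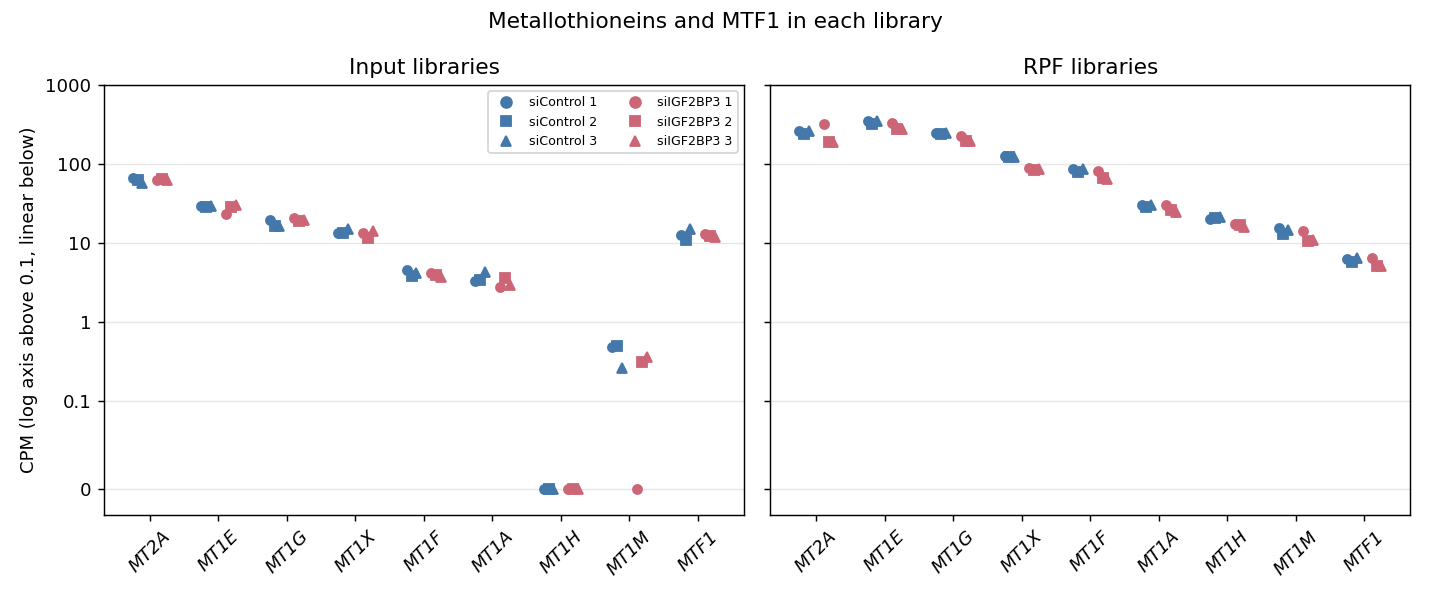
CPM of each gene (vertical axis, logarithmic above 0.1 and linear below) in the 6 Input libraries (left) and the 6 RPF libraries (right); colour gives the condition and shape the replicate number. MT1H is at 0 in every Input library and at 16.1 to 21.5 CPM in the RPF libraries, while MTF1 is lower in RPF than in Input.

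To order the genes by level, Input CPM were divided by the length of the mRNA and RPF CPM by the length of the coding sequence, in kb. In siControl Input the level was 155.3 ± 11.4 CPM per kb for MT2A (SD, n = 3), 43.1 ± 4.79 for MT1G, 41.3 ± 0.329 for MT1E, 34.7 ± 2.48 for MT1X, 9.78 ± 0.902 for MT1F, 9.15 ± 1.37 for MT1A, 1.61 ± 0.268 for MTF1 and 1.03 ± 0.334 for MT1M, with MT1H at 0. In this order MT1G and MT1E overlapped, and so did MT1F and MT1A. The MT1E value rests on an mRNA of 704 bases, longer than the 396 to 425 bases of the other 7 metallothioneins, and which MT1E transcript these cells use was not determined.

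On coding length the siControl RPF order was different. MT1E led with 1841.0 ± 59.7 CPM per kb (SD, n = 2), followed by MT2A at 1366.3 ± 41.9 and MT1G at 1308.5 ± 1.09, which overlapped each other. MT1X had 665.6 ± 10.2, MT1F 458.6 ± 14.2, MT1A 159.5 ± 3.88, MT1H 111.0 ± 2.59, MT1M 78.3 ± 6.13 and MTF1 2.72 ± 0.0574 CPM per kb. In siIGF2BP3 the 9 genes stood in the same order as in siControl in both assays. There MT1E overlapped MT2A and MT2A overlapped MT1G in RPF, and in Input the overlapping neighbours were MT1E and MT1X, MT1F and MT1A, and MT1M and MT1H.

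RPF over Input was high for the family. This ratio, of RPF CPM to the mean Input CPM of the condition, was ranked among the genes with at least 5 CPM in both assays, 9759 in siControl, whose median ratio was 0.937. MT1G had a ratio of 13.9 in siControl (13.6 to 14.3 over the RPF libraries) and rank 21, MT1E 11.8 (11.1 to 12) and rank 29, MT1X 8.82 (8.63 to 8.91) and rank 47, and MT2A 4.08 (3.83 to 4.17) and rank 407. MTF1 had a ratio of 0.482 (0.451 to 0.499) and rank 7458, below the median. MT1F and MT1A missed the 5 CPM minimum in Input, with ratios of 20.5 and 8.19. Of the ranked members MT1G has under 1000 exon bases in the files, a class in which the 127 other protein-coding genes had a median ratio of 1.46 and a 95th percentile of 5.38. MT1E, MT1X and MT2A have 1000 to 2000, a class in which 626 other genes had a median of 1.39 and a 95th percentile of 4.83, and MT2A lay below that percentile.

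In siIGF2BP3 the ratios were 10.4 for MT1G (9.78 to 11.5 over the RPF libraries), 10.7 for MT1E (10.0 to 12), 6.61 for MT1X (6.45 to 6.84), 3.68 for MT2A (2.98 to 5.05) and 0.451 for MTF1 (0.415 to 0.518). In each of these ranges replicate 1 was the highest library. The MT1G and MT1X ranges lay below those of siControl and the MT1E, MT2A and MTF1 ranges overlapped. Each range holds the spread of the RPF libraries only, since the Input mean of the condition was the divisor. The share of all ranked genes with separate ranges was not counted. The TE test given below, which includes the Input spread, called neither MT1G nor MT1X with all libraries. These ratios compare footprints on short sequences that copies share with Input reads of unknown length, and the part of counting in the high ratios was not tested.

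**Figure D3:**
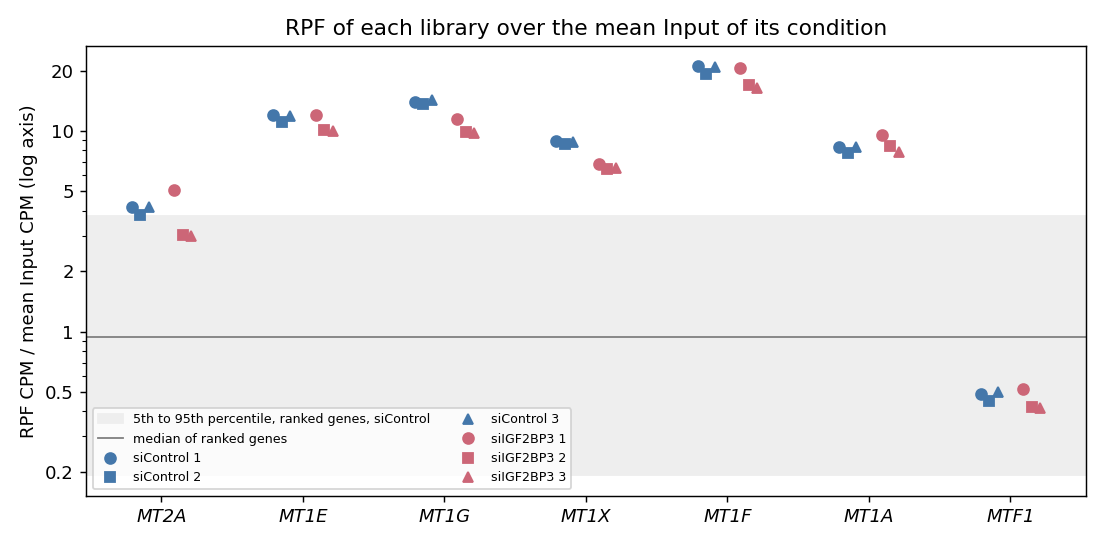
RPF CPM of each library divided by the mean Input CPM of its condition (logarithmic vertical axis), for 7 of the 9 genes, with the 5th to 95th percentile of the ranked genes in grey and their median as a line. MT1E, MT1G and MT1X lie above the grey band in both conditions, and MTF1 lies within it, below the median of 0.937.

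No member was called in the RNA comparison. Of 9 members 7 passed the filter on low counts, since MT1H and MT1M had too few Input counts, and 0 of these 7 had an edgeR adjusted p under 0.05, where 5.96% of 14759 genes were called. None of the 7 reached an unadjusted p under 0.05 either, and DESeq2, which gave only 1 of the 9 an adjusted p, called 0. MT1G had the only positive log2 fold change, 0.12 ± 0.10 (SE, edgeR adjusted p = 0.51), and the others ran from -0.25 ± 0.20 for MT1A (adjusted p = 0.516) to -0.04 ± 0.06 for MT2A (adjusted p = 0.79). MTF1 was at -0.09 ± 0.12 (adjusted p = 0.72). The median log2 fold change of the 7 was -0.13, against 0.002 over all genes tested. Summed over the 8 metallothioneins, Input was 137.5, 128.9 and 126.9 CPM in siControl and 125.6, 131.4 and 133.1 CPM in siIGF2BP3, so the summed mRNA level of the conditions overlapped.

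In the RPF comparison 1 of 9 members passed the test, and it was MT1X. All 9 passed the filter, and MT1X fell with a log2 fold change of -0.50 ± 0.05 (edgeR adjusted p = 0.00791). Over all 20192 genes tested 1.66% were called and 0.649% were called as falls. DESeq2 also called MT1X and no other member. The call of MT1X did not stand without any 1 of the 3 siControl libraries (adjusted p = 0.0817 to 0.0958), without siIGF2BP3 replicate 2 (0.0595), or with siControl replicates 2 and 3 summed to 1 sample (0.0902), while its log2 fold change stayed between -0.47 and -0.54 in these and all other settings tried.

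The other 8 members had negative RPF changes that were not called. MT1H was at -0.29 ± 0.07 (edgeR adjusted p = 0.0931), MT1M at -0.28 ± 0.13 (0.342), MT1F at -0.26 ± 0.10 (0.276), MT1G at -0.23 ± 0.08 (0.227), MT1E at -0.20 ± 0.09 (0.341), MTF1 at -0.16 ± 0.11 (0.575), MT1A at -0.12 ± 0.09 (0.576) and MT2A at -0.11 ± 0.22 (0.876). The wide error of MT2A goes with its high value in siIGF2BP3 replicate 1. The median over the 9 was -0.23, against 0.009 over all genes. All 3 knockdown libraries lay below all 3 control libraries for 3 of the 9 members, MT1G, MT1H and MT1X, as they did for 14.8% of all genes tested.

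**Figure D4:**
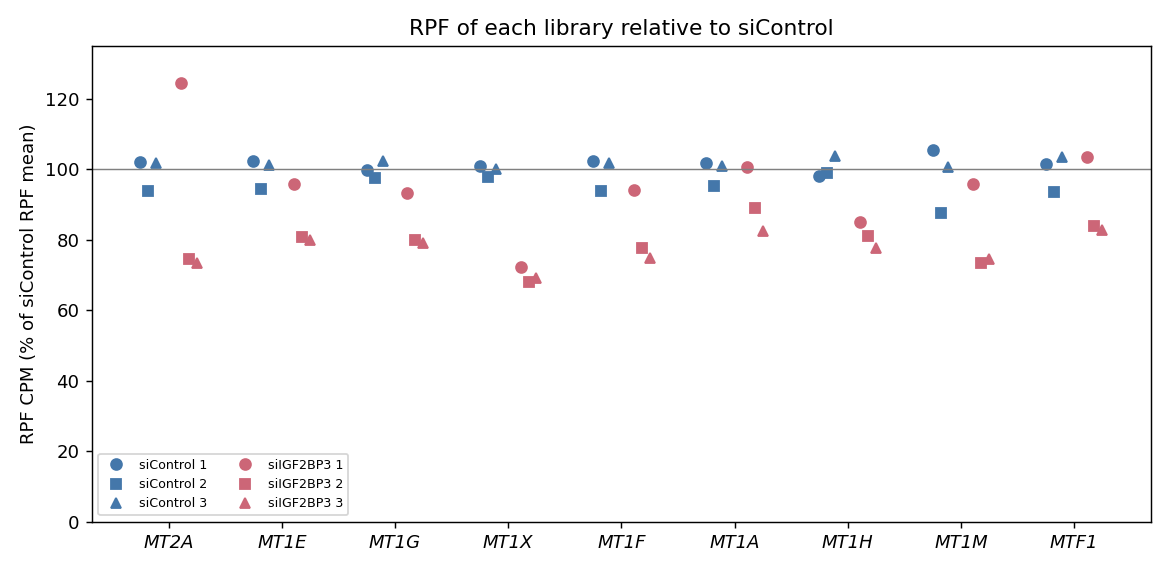
RPF CPM of each library as a percent of the siControl RPF mean (vertical axis, from 0) for the 9 genes, with colour for condition and shape for replicate. siIGF2BP3 replicate 1 (circles) lies above replicates 2 and 3 for every gene, most for MT2A, and the MT1X libraries of siIGF2BP3 lie closest together.

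Without siIGF2BP3 RPF replicate 1, 8 of 9 members fell, all metallothioneins. Their log2 fold changes ran from -0.22 ± 0.05 for MT1A (edgeR adjusted p = 0.0108) to -0.54 ± 0.03 for MT1X (3.17e-06), with MT2A at -0.43 ± 0.03 (3.37e-05), MT1M at -0.42 ± 0.08 (0.00395), MT1F at -0.39 ± 0.04 (0.000149), MT1G at -0.33 ± 0.03 (4.42e-05), MT1H at -0.33 ± 0.05 (0.00184) and MT1E at -0.31 ± 0.03 (0.000129). MTF1 was not called at -0.26 ± 0.08 (0.0921). The background also grew, to 16.5% of 20615 genes called and 8.57% called as falls. The remaining 2 knockdown libraries lay below all 3 control libraries for all 9 members, and for 22.8% of all genes tested. The same 8 of 9 were called when, in addition, siControl replicates 2 and 3 were summed. Because the 8 rows may share reads, their 8 calls cannot be taken as 8 separate observations. siIGF2BP3 RPF replicates 2 and 3 differed by 1.15 over all genes and 0.606 over the 8 metallothioneins, where 1 is the counting noise. They were kept as 2 libraries, although siControl RPF replicates 2 and 3, at 0.941, were counted as 1 sample in means and SDs. The p-values of every comparison without siIGF2BP3 RPF replicate 1 may thus rest on what amounts to 1 knockdown sample.

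The summed RPF of the 8 metallothioneins was 1131.3, 1061.7 and 1131.4 CPM in siControl and 1102.9, 864.8 and 853.4 CPM in siIGF2BP3. The sum does not depend on how reads are divided within the 8 rows, although it does on their division with other rows. Replicate 1 of siIGF2BP3 lay inside the siControl range and replicates 2 and 3 below it. With TMM scaling, which the tests use, replicate 1 was at 1143.9, above the siControl libraries (1112.0, 1062.9 and 1129.5), and replicates 2 and 3 were at 856.9 and 845.2, again below them. The log2 ratio of the mean sums was -0.24 with replicate 1 and -0.37 without it, against -0.01 for Input.

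The row of the long non-coding RNA ENSG00000259827, which overlaps MT1X on the same strand, moved as MT1X did. Its RPF was 37.6, 34.3 and 36.3 CPM in siControl and 27.9, 24.4 and 23.9 CPM in siIGF2BP3. The log2 fold change was -0.50 ± 0.08 (edgeR adjusted p = 0.0341), and its RNA change was -0.26 ± 0.14 (0.297). Counting siControl RPF replicates 2 and 3 as 1 library lost the RPF call (0.178), whereas leaving out siIGF2BP3 RPF replicate 1 gave -0.59 ± 0.05 (3e-05). Reads of the overlap cannot be told apart between these rows, and this row was added after its values were seen.

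Translational efficiency (TE), the RPF change beyond the RNA change, was tested as the interaction of assay and knockdown. Of the 9 members 7 were tested and 0 were called, where 2.17% of 13395 genes were. 2 of the 7 had an unadjusted p under 0.05, MT1G at -0.35 ± 0.12 (log2, edgeR adjusted p = 0.133) and MT1X at -0.34 ± 0.11 (0.115). MT1F was at -0.12 ± 0.20 (0.82), MT2A at -0.07 ± 0.26 (0.922), MT1E at -0.06 ± 0.13 (0.862), MTF1 at -0.06 ± 0.18 (0.901) and MT1A at 0.13 ± 0.21 (0.815). DESeq2 called 0 members as well. limma called 0 genes in all, not even the target IGF2BP3, so its lack of calls says nothing about the members. The median TE change of the 7 was -0.07, against 0.008 over all genes tested.

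Without siIGF2BP3 RPF replicate 1, 3 of 7 members fell in TE, MT1G at -0.45 ± 0.09 (edgeR adjusted p = 0.00168), MT2A at -0.38 ± 0.07 (0.000617) and MT1X at -0.38 ± 0.10 (0.0167). In that comparison 10.0% of 13479 genes were called and 5.48% were called as falls. MT1E was at -0.17 ± 0.09 (0.247) and MTF1 at -0.16 ± 0.17 (0.606). Whether the changes of MT1G, MT2A and MT1X differ from those of the other members was not tested.

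**Figure D5:**
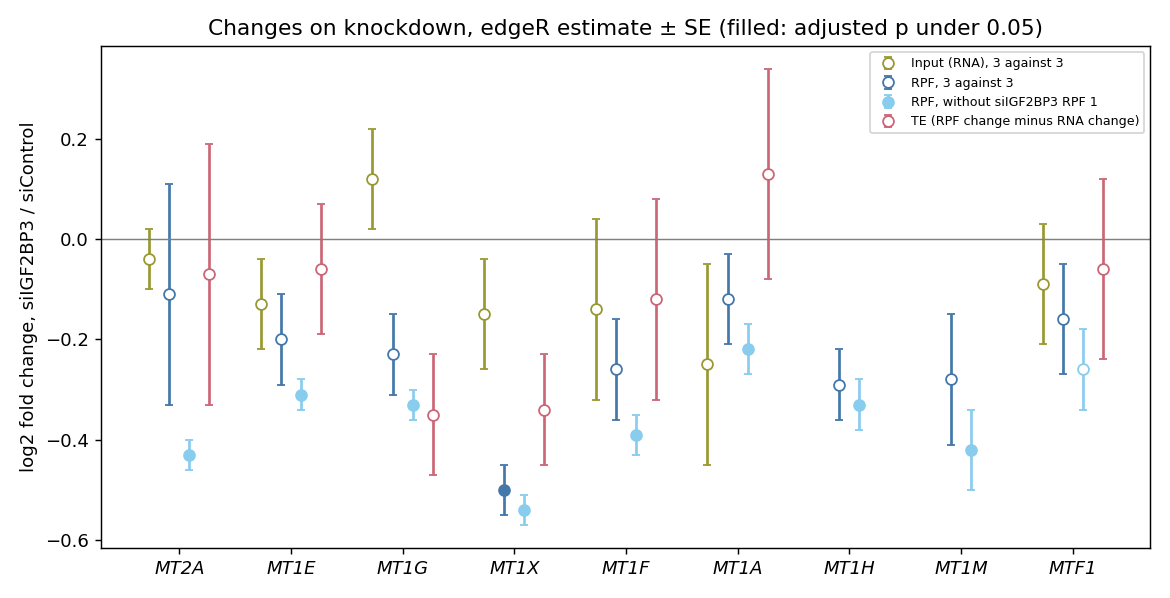
log2 fold change of siIGF2BP3 over siControl (vertical axis) for each gene, with edgeR SE as bars, in RNA, in RPF with and without siIGF2BP3 replicate 1, and in TE; filled points have an adjusted p under 0.05. With all libraries only the RPF change of MT1X is filled, and without replicate 1 all 8 metallothioneins are filled in RPF.

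Pseudogenes and family members with little or no Input were assigned part of the footprints. There are 13 other metallothionein rows, among them MT3 (the brain isoform), MT4 (of stratified epithelia) and MT1B. None held more than 3.2 Input counts in any library and 6 were at 0 in all 6, yet all 13 had counts in every RPF library. MT2P1, a processed pseudogene of MT2A on chromosome 4, had 42.8, 38.4 and 43.4 CPM of RPF in siControl and 36.1, 32.4 and 30.8 CPM in siIGF2BP3. MT1XP1 had 28.2 to 30.2 CPM and MT1L 26.6 to 28.9 CPM in siControl RPF. Together the 13 rows took 13.1% to 13.9% of the family's RPF counts and 0.165% to 0.57% of its Input counts.

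The split inside the family also differed between assays. MT2A held 45.3% to 49.0% of the family's Input counts but 18.8% to 24.7% of its RPF counts, with the highest value in siIGF2BP3 replicate 1. MT1E held 18.3% to 22.9% of Input and 25.6% to 27.7% of RPF. Of 12 other rows on the gene list, 10 were tested in RPF and 0 were called (1 at an unadjusted p under 0.05, and 0 of 8 by DESeq2). Without siIGF2BP3 replicate 1 there were 6 of 10 that fell, MT2P1 among them at -0.40 ± 0.05 (edgeR adjusted p = 0.000694), beside the 8.57% of all genes given above. The 13th row, MT1HL1, was at -0.36 ± 0.11 with all libraries (adjusted p = 0.172) and fell without siIGF2BP3 replicate 1 (-0.46 ± 0.07, adjusted p = 0.00199).

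Among genes with at least 5 CPM in both assays, the 5 whose log2 CPM, centred within each assay, ran most like that of MT1E, the member with the most counts, were TPRG1L, TUFM, WWC1, PKM and ACOT1 (Pearson r of 0.93, 0.918, 0.917, 0.916 and 0.91 over 12 libraries, out of 9796 genes). The r of MT1E with members of its own family was 0.619 with MT2A, 0.616 with MT1X and 0.388 with MT1G, and with MTF1 it was 0.387. As the 5 genes were picked for the highest r of 9796, any other gene is bound to lie lower. When siIGF2BP3 RPF replicate 1 was left out, a choice made after seeing the data, the 5 genes had an r of 0.908 to 0.947 over 11 libraries and ranks from 3 to 22, and the family members 0.717 (MT2A), 0.707 (MT1X) and 0.384 (MT1G). The points share libraries and may, within the family, share reads.

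The promoters were searched for the core of the metal response element, TGCACNC or TGCGCNC on either strand, in the RefSeq promoter table (GRCh38.p14, 250 bases before to 50 after the start). It holds 3 of the 8 metallothioneins and MTF1. MT2A had 8 cores, MT1H 8 and MT1X 4, while MTF1 itself had 0. At least 1 core occurred in 29.6% of the 35116 promoters, and at least 4 in 0.6%. SLC30A1, the zinc exporter of the cell surface and a known MTF1 target, had 2 cores. 1 core of each of the 3 genes is shown with its surroundings, at -54 from the start site in MT2A and at -53 in MT1H and MT1X, read on the gene's strand, with the core in capitals.
MT2A (chr16:56608519-56608547, plus strand): ggcggggctttTGCACTCgtcccggctct
MT1H (chr16:56669750-56669778, plus strand): ggcagggtctcTGCACCCggctccctccc
MT1X (chr16:56682406-56682434, plus strand): ggcggggcctcTGCGCCCggccctcttcc
MT1H, whose mRNA was not detected, thus had as many cores as MT2A, the most abundant in Input. A match of letters is a description and does not show binding.

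Zinc transporters set the zinc level to which MTF1 responds. Of 10 zinc exporters (SLC30 family), which move zinc out of the cytosol, 6 were tested in RNA and 0 called by edgeR (0 at an unadjusted p under 0.05, and 0 by DESeq2), and 1 of 7 rose in RPF and 1 of 6 in TE. This was SLC30A5, which loads zinc into the secretory pathway. Of all genes tested, 1.66% were called in RPF and 2.17% in TE. SLC30A5 RPF was 35.0, 33.4 and 33.1 CPM in siControl and 46.0, 43.4 and 41.0 CPM in siIGF2BP3, and its Input was 44.2, 40.1 and 43.4 CPM against 36.5, 43.0 and 40.9 CPM. The RPF change was 0.37 ± 0.07 (edgeR adjusted p = 0.0438) and the TE change 0.50 ± 0.10 (0.0111), and with siControl RPF replicates 2 and 3 summed the RPF call was lost (0.219). They were, without siIGF2BP3 RPF replicate 1, 0.31 ± 0.04 (0.000619) and 0.45 ± 0.08 (0.00101). SLC30A1 was at 0.21 ± 0.05 in RPF (0.106) and at -0.03 ± 0.05 in RNA (0.832) with all libraries. Without that replicate, a setting in which 16.5% of all genes were called in RPF and 10.0% in TE, 4 of 7 exporters rose in RPF, SLC30A1 (0.20 ± 0.04, 0.00881), SLC30A5, SLC30A6 (0.11 ± 0.03, 0.0313) and SLC30A9 (0.15 ± 0.04, 0.0414), and 2 of 6 in TE. Of 14 zinc importers (SLC39 family) 0 of 11 were called in RNA, 0 of 12 in RPF and 0 of 11 in TE by edgeR, with 0, 3 and 1 at an unadjusted p under 0.05, and DESeq2 called SLC39A4 in RPF and TE. With siIGF2BP3 RPF replicate 1 left out, 2 of 12 importers rose in RPF, SLC39A4 (0.33 ± 0.03, edgeR adjusted p = 7.96e-05) and SLC39A10 (0.28 ± 0.05, 0.00397), while SLC39A5 fell (-0.22 ± 0.04, 0.00271). In TE 1 of 11 rose, SLC39A4 (0.29 ± 0.07, 0.00729), and 1 fell, SLC39A5 (-0.28 ± 0.07, 0.0176).

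Of 13 copper handling genes 1 was called by edgeR over the 3 comparisons. COMMD1, a regulator of copper export, fell in RNA by 0.32 on the log2 scale (-0.32 ± 0.09, edgeR adjusted p = 0.0332). In RNA 5.96% of all genes tested were called. COMMD1 Input was 24, 23.5 and 22.8 CPM in siControl and 17.4, 21.0 and 19.8 CPM in siIGF2BP3. The gene overlaps CCT4 on the opposite strand, and whether counting used strand is not stated. None of the 13 was called in RPF or TE by edgeR, with 2 and 3 at an unadjusted p under 0.05, and DESeq2 called CP, the plasma copper carrier ceruloplasmin, in RPF. In RPF 2 of 13 fell without siIGF2BP3 RPF replicate 1, CP (-0.20 ± 0.03, edgeR adjusted p = 0.00114) and CCS, the copper chaperone of superoxide dismutase (-0.17 ± 0.04, 0.0221). In that setting 16.5% of all genes were called in RPF, 8.57% as falls, and 10.0% were called in TE. In TE the copper importer SLC31A1 (0.18 ± 0.06, 0.0444) and COMMD1 (0.30 ± 0.09, 0.0351) rose in that setting and the copper exporter ATP7B fell (-0.27 ± 0.07, 0.0156).

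Of 11 genes of the NRF2 response to oxidants, 0 were called in RNA (0 at an unadjusted p under 0.05, and 0 by DESeq2) and 1 rose in RPF and TE, SLC7A11, the cystine importer that feeds glutathione synthesis. SLC7A11 RPF was 43.8, 44 and 44.2 CPM in siControl and 52.4, 64.1 and 62.6 CPM in siIGF2BP3. Its change was 0.46 ± 0.07 in RPF (edgeR adjusted p = 0.0224) and 0.42 ± 0.09 in TE (0.0195), against 0.05 ± 0.05 in RNA. With siControl RPF replicates 2 and 3 summed, both calls were lost (0.134 and 0.0545). Its change without siIGF2BP3 RPF replicate 1 was 0.52 ± 0.03 in RPF (1.17e-05) and 0.48 ± 0.07 in TE (3.82e-05). In that setting 5 of 11 genes rose in RPF, from TXN at 0.09 ± 0.02 (0.0306) to SLC7A11, and 1 fell, while 2 rose in TE. Over all genes tested, 16.5% were called in RPF there and 10.0% in TE. Of 8 glucocorticoid response genes 6 were tested and 0 called in each comparison by edgeR, with 2, 0 and 1 at an unadjusted p under 0.05, and 0 by DESeq2. Without siIGF2BP3 RPF replicate 1 edgeR called 0 of 7 in RPF and 0 of 6 in TE, each with 1 at an unadjusted p under 0.05. The hepatocyte markers, which bear on all these lists, fell in RNA for 4 of 7 (ALB, APOA1, AFP and SERPINA1, log2 fold changes from -0.29 to -0.19), where 5.96% of all genes were called. DESeq2 called 5 in RNA, these 4 and APOA2. None of the 7 was called in RPF or TE by edgeR (0 and 3 at an unadjusted p under 0.05, and 0 and 2 called by DESeq2). Without siIGF2BP3 RPF replicate 1, APOA1 fell in RPF (-0.13 ± 0.03, edgeR adjusted p = 0.00916), and 3 of 7 rose in TE, APOA1 (0.17 ± 0.05, 0.0287), AFP (0.18 ± 0.05, 0.0163) and SERPINA1 (0.20 ± 0.06, 0.024). These calls stand beside the 16.5% and 10.0% of all genes given above. The part of these markers in the values of the metallothioneins and of the gene lists was not tested.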

How the data were processed

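Input and RPF libraries of HepG2 cells were compared between siControl and siIGF2BP3, with groups and replicate numbers from the labels. The authors removed adapters and low-quality ends with Cutadapt, used STAR for alignment to hg38, and obtained counts per gene from featureCounts. Tool versions, how shared reads and strand were handled, and how the Input libraries were made are not given in the sources used here. The deposited values are estimated counts, unscaled, many of them fractional. They were rounded to whole numbers (at most 0.0445% of a library's total changed) and named through GENCODE 44, which matched 99.2% of identifiers.

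edgeR 4.0.16 (R 4.3.3) quasi-likelihood tests with TMM factors compared siIGF2BP3 with siControl in Input (RNA), in RPF, and as the interaction of assay and knockdown (TE, TMM within each assay). P-values were adjusted over all genes tested by Benjamini-Hochberg, with a threshold of 0.05. SE came from the estimate and its F statistic. Fold changes and medians are on the log2 scale. For means and SDs, siControl RPF replicates 2 and 3 were averaged first (n = 2). DESeq2 1.42.0 and limma 3.58.1 (log2 ratios of same-numbered libraries, pseudocount 0.5) were alternatives. DESeq2 was run without a filter on low counts, and gave no adjusted p for 23398 of 28735 genes in RNA, 16676 of 34396 in RPF and 29405 of 38887 in TE. CPM are deposited counts over the library total. Scripts were tested on simulated data. The floor of 3 counts covers counting error only.

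The 9 members, the gene lists and the tests were chosen with earlier results of these data known. Named genes were the members, IGF2BP3, other metallothionein rows with a count, the genes of each list called in at least 1 comparison (at most 4), and the 5 genes most like the member with the most counts. SLC30A1 and ENSG00000259827 are named outside that rule, as are genes called only by DESeq2 or without siIGF2BP3 RPF replicate 1.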

Additional observations from a re-analysis of the deposited data

How the results depend on the processing

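In RNA, 0 members were called under all 16 alternatives. In RPF, where 1 was called, normalization (RLE, upper quartile), DESeq2, the filters, rounding down and the length correction left the count at 1, and leaving out 1 library gave 0 to 8. The count was 5 with a correction for GC content (MT1E, MT1F, MT1H, MT1M and MT1X), 0 with siControl RPF replicates 2 and 3 summed, and 8 with siIGF2BP3 RPF replicate 1 left out as well, an alternative chosen after seeing the data. In TE, where 0 were called, leaving out 1 library gave 0 to 3, the GC correction 1 (MT1G), and the summed and left-out setting 3. The causes of these shifts were not tested. Signs turned for MT2A, MTF1 and MT1E, none of which was called in those settings. Leaving out 1 library at a time gave log2 fold changes of -0.09 to 0.003 in RNA, -0.43 to 0.04 in RPF and -0.38 to 0.06 in TE for MT2A, -0.21 to 0.04 in RNA and -0.20 to 0.05 in TE for MTF1, and -0.17 to 0.01 in TE for MT1E. The count over all genes moved by over 1.5 times under some of these, in RPF from 336 to 11 without siControl replicate 2, 15 without replicate 1 or 3, 38 and 70 without siIGF2BP3 replicates 2 and 3, 14 with the sum, 3410 without siIGF2BP3 replicate 1, 3025 with both, 644 with DESeq2, 1101 with the GC correction and 198 among protein-coding genes. In TE they moved from 291 to 802 with the GC correction, 1350 without siIGF2BP3 RPF replicate 1, 1088 with both, 143 with the sum, 121 with a block for the culture and 0 with limma. In TE, leaving out 1 other library gave 126 to 295, and in RNA 444 to 907 against 879.

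With metallothionein pseudogenes and other rows added, the summed RPF level rose from 1113.9 to 1284.4 CPM in siControl and from 940.4 to 1090.7 CPM in siIGF2BP3. TMM scaling put the sum of siIGF2BP3 RPF replicate 1 above the siControl range. The RPF/Input ratio moved by more than its spread for 14 of 16 values with CPM over protein-coding genes only, and for 2 of 16 with TMM scaling. Correlations of same-numbered deviations ran from -0.018 to 0.115 between conditions, within an assay. Between Input and RPF of a condition they ran from -0.133 to 0.021. Whether the replicate numbers pair the libraries cannot be told from values this weak. A fit with replicate number as a block called 0 members in RNA, 1 in RPF (MT1X, adjusted p = 0.014) and 0 in TE, and 931, 379 and 228 genes in all. Depth limits MT1H and MT1M, whose Input held 0 to 7.33 counts.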
